A study of Mus musculus with 18 samples.

Results

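The regions described here are the accessible sites of the matrix proteases and their inhibitors in mouse lung ECs. They were found by merging the ATAC-seq peaks of chromosomes 1 to 19, X and Y from all 18 peak lists (overlap of at least 1 bp), keeping those found in 2 or more lists, and taking those whose midpoint lies nearest to the TSS of a matrix metalloproteinase (Mmp), Adamts or Timp gene. This gave 120 of 47338 regions, 17 in promoters (midpoint no more than 1000 bp before or 100 bp after a TSS) and 103 distal, at 35 of the 46 genes that match. A region is named by its gene and its distance from the TSS, with a minus sign for upstream. Whether a region acts on its nearest gene was not measured.

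ATAC-seq marks open chromatin, because a transposase inserts sequencing adapters where DNA is accessible. Each list came from ECs of a single mouse, sorted as CD31+ cells that lacked CD45, EpCAM and GFP, from Col1α1-GFP transgenic mice of the FVB strain, whose GFP marks collagen-producing cells. The groups were Young Sham (2 months, PBS given into the trachea, n = 5), Young Bleo (2 months, bleomycin at about 1 U/kg by the same route, n = 4), Aged Sham (18 months, PBS, n = 4) and Aged Bleo (18 months, bleomycin, n = 5), and lungs were taken at day 30. Mice of both sexes were used, and sex was not used here.

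MMPs are zinc proteases that cut collagens, gelatin, basement membrane proteins and many surface proteins; most are secreted, and the membrane-type MMPs stay at the cell surface. ADAMTS enzymes are secreted relatives with thrombospondin repeats, and several of them cleave the hyaluronan-binding proteoglycans versican and aggrecan or trim procollagens. TIMPs bind the active site of these enzymes and block it, and TIMP3 also binds to the matrix and inhibits several ADAMTS and ADAM proteases.

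The following windows are shown because the differences described below rest on them: the Mmp16 promoter, whose peak was found in young mice alone, the Timp1 and Adamts3 promoters, and 7 distal sites whose peaks differed between groups. They are mm10 (GRCm38.p6) reference sequence, which is not of the FVB strain. For promoters the 200 bases upstream of the TSS are given on the strand of the gene, and for distal sites 200 bases around the strongest summit on the plus strand. Capitals mark matches, on either strand, to the ERG core CAGGAAG, the AP-1 site TGACTCA, the forkhead site TGTTTAC and the KLF site CACACCC.
Mmp16 promoter: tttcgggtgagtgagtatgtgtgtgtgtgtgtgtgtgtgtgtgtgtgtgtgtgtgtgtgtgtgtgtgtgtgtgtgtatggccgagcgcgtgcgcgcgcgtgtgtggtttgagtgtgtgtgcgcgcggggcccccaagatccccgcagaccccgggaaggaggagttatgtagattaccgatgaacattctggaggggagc
Timp1 promoter: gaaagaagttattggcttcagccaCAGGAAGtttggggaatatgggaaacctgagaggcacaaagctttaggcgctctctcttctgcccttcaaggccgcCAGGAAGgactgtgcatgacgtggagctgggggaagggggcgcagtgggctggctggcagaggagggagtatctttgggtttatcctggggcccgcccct
Adamts3 promoter: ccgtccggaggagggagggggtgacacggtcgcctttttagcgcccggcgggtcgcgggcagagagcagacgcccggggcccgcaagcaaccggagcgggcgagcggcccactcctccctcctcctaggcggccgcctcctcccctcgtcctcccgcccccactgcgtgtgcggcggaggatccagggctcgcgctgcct
Timp3 -96.26 kb: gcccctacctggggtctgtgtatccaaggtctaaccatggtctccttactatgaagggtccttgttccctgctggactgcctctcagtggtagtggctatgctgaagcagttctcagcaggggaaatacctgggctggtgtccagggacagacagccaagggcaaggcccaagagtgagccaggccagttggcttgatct
Timp3 +39.55 kb: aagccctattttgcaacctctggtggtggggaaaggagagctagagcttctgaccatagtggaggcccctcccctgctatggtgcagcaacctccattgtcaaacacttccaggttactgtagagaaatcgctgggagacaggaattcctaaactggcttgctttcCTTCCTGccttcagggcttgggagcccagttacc
Timp3 -4.084 kb: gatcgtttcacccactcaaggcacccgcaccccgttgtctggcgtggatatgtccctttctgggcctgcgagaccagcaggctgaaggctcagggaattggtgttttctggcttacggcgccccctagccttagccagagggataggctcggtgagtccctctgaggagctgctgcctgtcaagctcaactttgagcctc
Adamts4 +7.21 kb: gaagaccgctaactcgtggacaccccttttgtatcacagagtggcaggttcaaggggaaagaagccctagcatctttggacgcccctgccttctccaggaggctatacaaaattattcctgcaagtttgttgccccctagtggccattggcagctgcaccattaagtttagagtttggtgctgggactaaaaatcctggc
Adamts1 +66.36 kb: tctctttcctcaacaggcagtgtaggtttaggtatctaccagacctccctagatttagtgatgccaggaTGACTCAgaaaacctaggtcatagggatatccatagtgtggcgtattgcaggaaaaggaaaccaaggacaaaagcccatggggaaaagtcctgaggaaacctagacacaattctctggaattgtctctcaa
Adamts7 +21.37 kb: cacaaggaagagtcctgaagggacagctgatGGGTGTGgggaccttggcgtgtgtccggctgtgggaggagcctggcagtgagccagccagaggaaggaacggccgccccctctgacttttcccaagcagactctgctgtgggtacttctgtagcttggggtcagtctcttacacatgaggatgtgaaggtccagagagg
Adamts18 -42.71 kb: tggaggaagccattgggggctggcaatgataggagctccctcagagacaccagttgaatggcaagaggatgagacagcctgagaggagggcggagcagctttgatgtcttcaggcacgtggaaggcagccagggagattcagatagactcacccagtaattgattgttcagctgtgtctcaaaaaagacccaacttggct
The windows lie at chr4:17853092-17853291 (Mmp16 promoter), chrX:20869966-20870165 (Timp1 promoter), chr5:89883335-89883534 (Adamts3 promoter), chr10:86204020-86204219 (Timp3 -96.26 kb), chr10:86339960-86340159 (Timp3 +39.55 kb), chr10:86296241-86296440 (Timp3 -4.084 kb), chr1:171257247-171257446 (Adamts4 +7.21 kb), chr16:85736623-85736822 (Adamts1 +66.36 kb), chr9:90184278-90184477 (Adamts7 +21.37 kb) and chr8:113891466-113891665 (Adamts18 -42.71 kb). The Mmp16 window holds an unbroken dinucleotide repeat of 58 bases, while the longest such run was 4 to 12 bases in the other 34 windows read in the same way. Whether this repeat bears on the peak calls was not tested. The Timp1 window holds 2 ERG cores, the Timp3 +39.55 kb window 1 ERG core in reverse orientation, the Adamts1 +66.36 kb window 1 AP-1 site and the Adamts7 +21.37 kb window 1 KLF site. The other 6 printed windows hold none of these letters.

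Within 200 bases around the strongest summit, the ERG core (CAGGAAG or CTTCCTG) was present in 19 of the 120 regions (15.8%), beside 19.9% of all regions. Split by position, it was present in 17 of the 103 distal regions (16.5%, beside 22.6% of all distal regions) and in 2 of the 17 promoters (11.8%, beside 9.98%). AP-1 letters were present in 5 regions (4.17%, beside 6.60%), forkhead letters in 6 (5.00%, beside 4.45%) and KLF letters in 6 (5.00%, beside 7.46%). These are matches of letters, given as a description.

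The lists held 21050 (Aged Bleo 4) to 40883 (Aged Bleo 2) nuclear peaks, with a median of 25 to 33 fragments at the summit. The lists carry a sequencing lane code in their names: lane 8 held all 5 Young Sham samples with Young Bleo 4, lane 6 all 5 Aged Bleo samples with Aged Sham 4, and the other 3 mice of Young Bleo and of Aged Sham shared lane 7. No aged sample shared a lane with Young Sham and no Aged Bleo sample shared one with Young Bleo, so that in these comparisons age cannot be told apart from lane. Bleomycin and lane were also partly joined, since Young Bleo had 1 of 4 samples in the lane of Young Sham and Aged Sham 1 of 4 in that of Aged Bleo. All 10 endothelial marker genes had a peak at the TSS in at least 1 list (6 of them in all 18 lists, and 7 to 10 of the genes per list), while the TSSs of 10 leukocyte, 6 mural, 6 epithelial and 3 mesothelial markers had none in any list. Of 6 fibroblast markers only Pdgfra had a peak, in all 18 lists, and Col1a1 and Col1a2 had none. The 3 lymphatic endothelial markers Prox1, Lyve1 and Flt4 had 1 to 3 peaks per list. In bulk samples, fewer cells of a type with an open site and a less open site per cell cannot be told apart.

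A peak was present in all 18 lists at 7 of the 17 promoter regions (41.2%), beside 79.2% of all 10081 promoter regions. At distal regions the shares were 31 of 103 (30.1%) and 25.4% of 37257. Another 27 of the 120 regions (22.5%) had a peak in 2 or 3 lists, beside 14.1% of all regions. The distal regions lay at a median of 24.7 kb from the TSS, beside 21.3 kb for all distal regions, and 49 of the 120 regions were intergenic, 46 intronic, 6 in UTRs and 2 in coding exons.

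The share of the 17 promoters with a peak was 84.7% ± 7.89 (SD, n = 5) in Young Sham, 80.9% ± 7.40 (n = 4) in Young Bleo, 76.5% ± 4.80 (n = 4) in Aged Sham and 65.9% ± 9.67 (n = 5) in Aged Bleo. The same share over all promoters was 92.6% ± 1.99, 93.1% ± 1.51, 89.6% ± 1.89 and 88.6% ± 4.81 in that order. For the 103 distal regions it was 62.7% ± 6.88, 71.6% ± 7.62, 54.6% ± 9.98 and 57.1% ± 15, beside 66.4% ± 7.93, 70.3% ± 7.10, 51.0% ± 8.54 and 56.0% ± 18.5 for all distal regions. The group ranges overlapped or met for the 17 promoters, for the 103 distal regions and for all promoters. Over all distal regions Young Bleo (63.7 to 76.5%) lay wholly above Aged Sham (43.1 to 58.6%). Of all 120 regions, the share was lowest in Aged Bleo 4, the shortest list (41.7%), and highest in Young Bleo 3 (79.2%), while Aged Bleo 2, the longest list, had 71.7%. No test was made of these shares.

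**Figure D1:**
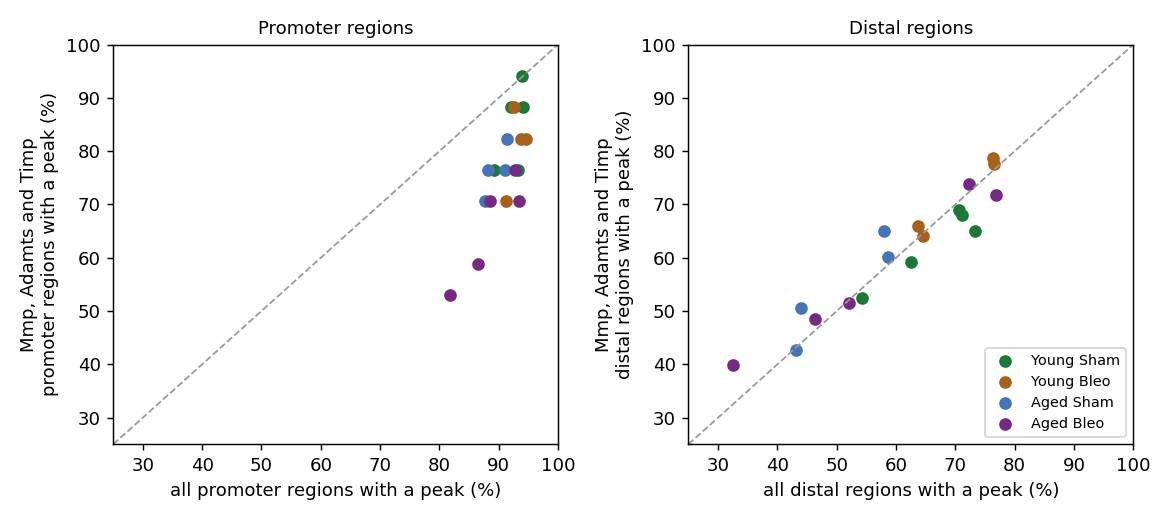
Each point is 1 sample, coloured by group, with the percentage of all promoter (left) or distal (right) regions that carry a peak on the horizontal axis and the same percentage of the Mmp, Adamts and Timp regions on the vertical axis; the dashed line marks equal percentages. All promoter points but that of Young Sham 2 (94.1% against 94.0%) lie below the line, down to 52.9% in Aged Bleo 4, and distal points lie on both sides of it.

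The promoters fell into 3 sets by the percentile of the fold enrichment (fragments at the summit over local background) among all peaks of the same list. Adamts17, Adamts6, Mmp11 and Mmp17 had peaks in all 18 lists at mean percentiles of 90.8, 80.1, 73.1 and 67.8. Adamts10, Adamts9 and Adamts1 had peaks in all lists at mean percentiles of 50.5, 47.9 and 47.7. By fragments at the summit the order differed. The medians were 146.5, 215, 70 and 83 at Adamts17, Adamts6, Mmp11 and Mmp17. They were 33, 114 and 177.5 at Adamts10, Adamts9 and Adamts1. The remaining 10 promoters had a peak in 2 to 17 lists, and their mean percentile, with 0 for a list without a peak, was 36.9 at most (Timp1). Timp2, Timp3 and Adamts7 have no region in the promoter class, but a region classed as UTR, 0.101, 0.143 and 0.144 kb downstream of the TSS, had a peak in all 18 lists at mean percentiles of 80.7, 68.6 and 81.0. No region at all was found for Mmp1a, Mmp1b, Mmp3, Mmp7, Mmp10, Mmp12, Mmp21, Adamts2, Adamts13, Adamts16 and Adamts19, so that of the 10 genes of the Mmp cluster on chromosome 9, which includes the collagenases and stromelysins, 4 had any region and none had one in a promoter.

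**Figure D2:**
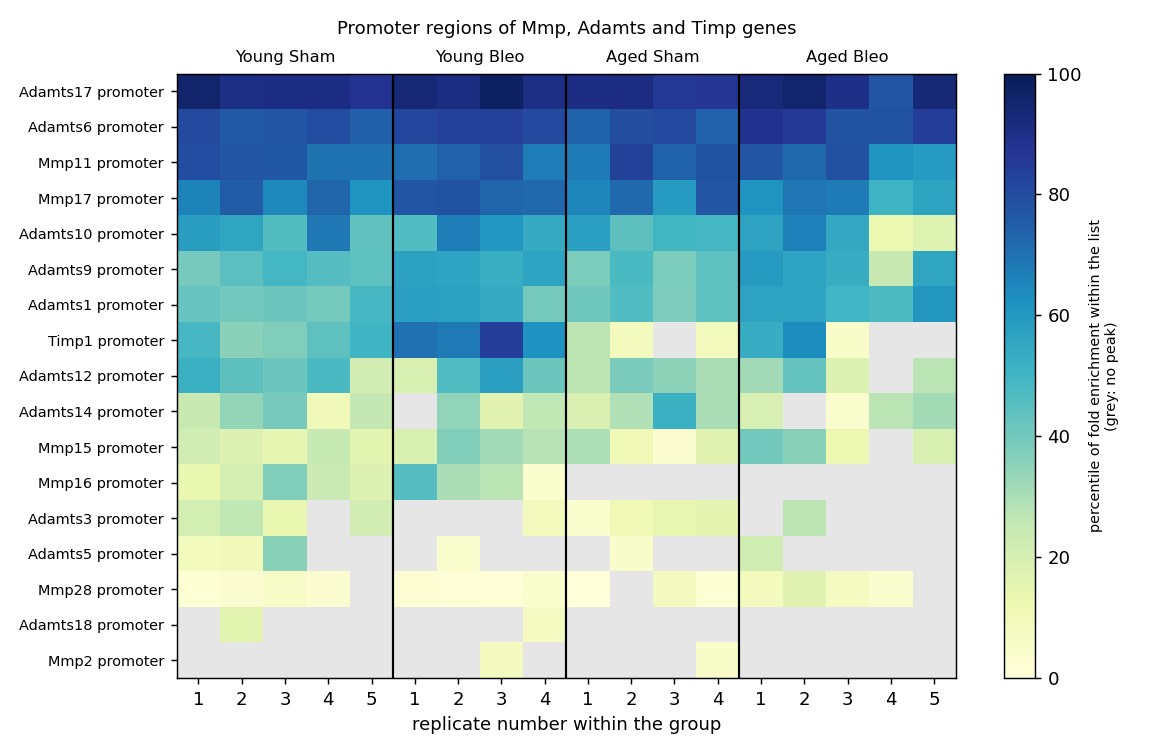
Rows are the 17 promoter regions in order of mean percentile, columns the 18 samples by group, and colour the percentile of fold enrichment within the list, with grey for no peak. The Mmp16 row is grey in all 9 aged samples and coloured in all 9 young samples, and the top rows are coloured in every sample.

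Samples were then compared region by region by the numbers with and without a peak, using a two-sided Fisher's exact test with a call at an unadjusted p of at most 0.05; with groups of 4 and 5 the smallest p is 0.00794. No region of the 47338 passed Benjamini-Hochberg adjustment in any of the 5 comparisons by this test, in which 419 to 2813 regions had an unadjusted p of at most 0.05. By the percentiles analysed with limma, which use the strength of peaks as well as their presence, 46 to 2827 of all regions passed the adjustment. A percentile also depends on the length of the list, since the same peak ranks lower where fewer weak peaks were called. With percentiles taken among the 21050 strongest peaks of each list, an alternative added after the values were seen, 2 of the 17 limma calls at these regions passed, Adamts18 -42.71 kb in Young Bleo and Timp3 +68.63 kb in Aged Bleo, both against Young Sham. In all, 13 of the 120 regions (10.8%), at 10 genes, were called in at least 1 comparison by the Fisher test, beside 12.5% of all regions. The 3 comparisons with Young Sham share its 5 samples.

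Aged Sham differed from Young Sham at 4 regions: the Mmp16 promoter, Adamts4 +7.21 kb and Adamts17 +129.1 kb had fewer peaks in Aged Sham, and Timp3 -52.19 kb had more. In promoters, 1 of 17 was lower, beside 1.24% of all promoters, and 0 were higher, beside 0.179%. Of the 103 distal regions 2 were lower, beside 5.89% of all distal regions, and 1 was higher, beside 0.287%. By limma, 2 of the 120 regions passed the adjustment, beside 2.7% of all regions. They were Adamts4 +7.21 kb and Timp3 -4.084 kb, both lower in Aged Sham, as were 97.0% of the 1279 regions called.

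Young Bleo differed from Young Sham at 6 distal regions and at no promoter. Timp3 -96.26 kb, Timp3 +39.55 kb, Adamts6 +212 kb, Adamts1 +66.36 kb and Adamts1 +53.51 kb had more peaks in Young Bleo, and Adamts4 +7.21 kb had fewer. The 5 higher regions were beside 4.82% of all distal regions and the 1 lower region beside 2.38%. Of all promoters 0.427% were lower and 0.883% higher. By limma, 6 of the 120 regions passed the adjustment, beside 3.38% of all regions, and 5 of them were higher in Young Bleo, while 51.8% of the 1602 regions called were lower. Timp3 -96.26 kb (both tests) and Adamts1 +53.51 kb (Fisher test) were kept only through Young Bleo. Their direction was fixed by that filter, so their place in these counts is a description.

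Aged Bleo differed from Young Sham at 3 regions. The Mmp16 promoter was lower, beside 1.01% of all promoters, and 0 promoters were higher, beside 0.0496%. Adamts4 +7.21 kb was lower, beside 3.55% of distal regions, and Adamts6 +212 kb was higher, beside 0.242%. By limma, 7 of the 120 passed the adjustment, beside 5.97% of all regions, and all 7 were lower in Aged Bleo, as were 92.2% of the 2827 regions called. Among them, Adamts7 +43.74 kb differed by -37.7 (limma adjusted p = 0.01915) and Adamts17 +116.2 kb by -19.4 (adjusted p = 0.01945). With lane as a covariate these were -66.7 and 5.19 (limma adjusted p = 0.506 and 0.934). With lists of equal length they were -17.5 and -24.7 (limma adjusted p = 0.0972 and 0.229).

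Bleomycin in aged mice was followed by 2 differences from Aged Sham. The Adamts3 promoter was lower in Aged Bleo, beside 0.288% of all promoters, and 0 promoters were higher, beside 0.0694%. Adamts14 -2.538 kb was higher, beside 0.585% of distal regions, and 0 were lower, beside 0.443%. By limma no member passed the adjustment, beside 0.0972% of all regions, and 6 (5.00%) had an unadjusted p of at most 0.05, beside 7.95% of all regions.

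Aged Bleo had fewer peaks than Young Bleo at 5 regions and more at none. The Mmp16 promoter was lower, beside 0.942% of all promoters, with 0.0198% of them higher. The 4 lower distal regions, beside 2.85% of all distal regions, were Adamts7 +21.37 kb, Adamts18 +11.51 kb, Timp3 -96.26 kb and Timp3 +39.55 kb, and 0.15% of distal regions were higher. By limma, 2 of the 120 passed the adjustment, beside 0.932% of all regions, namely Adamts7 +21.37 kb and Timp3 -96.26 kb. The latter was kept only through Young Bleo, so its place in both counts was fixed by the filter. When each list was reduced to its 21050 strongest peaks, the length of the shortest list, none of the 20 calls of named regions in these 5 comparisons remained. Leaving out 1 sample at a time, an outcome that the counts alone fix in groups of 4 and 5 and that is therefore no measure of stability, 7 of the 20 kept a p of at most 0.05: the 3 of the Mmp16 promoter, those of Adamts4 +7.21 kb in both aged groups against Young Sham, Adamts6 +212 kb in Aged Bleo against Young Sham and Adamts7 +21.37 kb in Aged Bleo against Young Bleo.

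**Figure D3:**
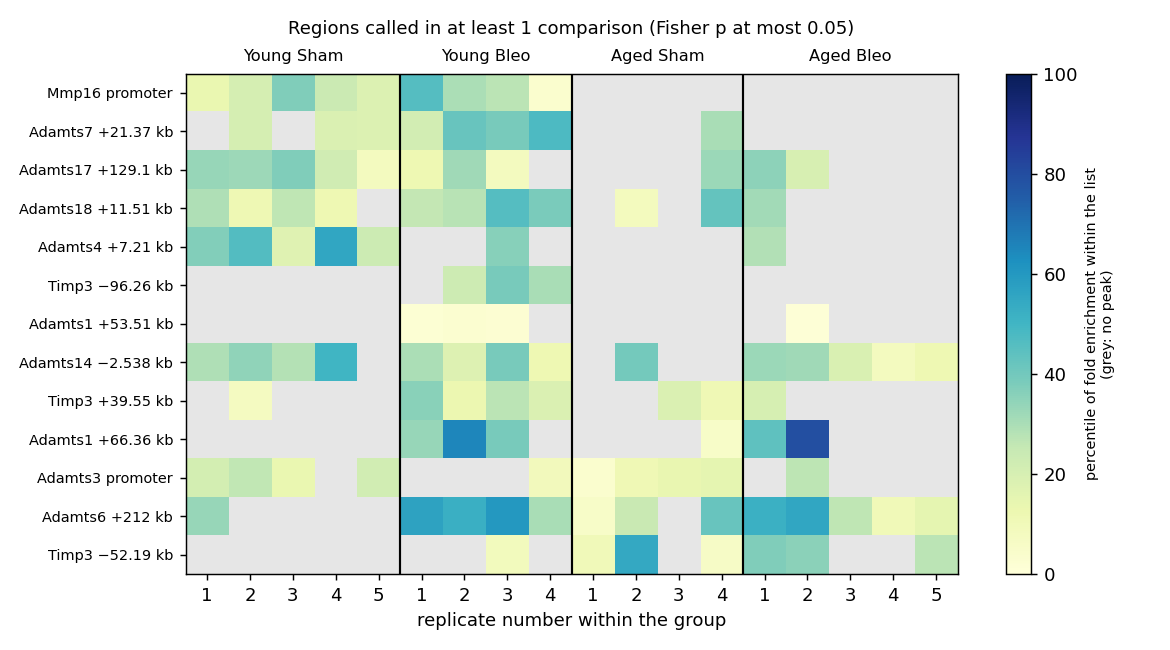
Rows are the 13 regions called in at least 1 comparison, columns the 18 samples by group, and colour the percentile of fold enrichment within the list, with grey for no peak. The highest percentile in it is 79.1, at Adamts1 +66.36 kb in Aged Bleo 2.

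Among the TIMPs, Timp3 had more regions than any other gene, 14 from 96.3 kb upstream to 75.8 kb downstream of its TSS, all distal by class and all within transcripts of Syn3, the synapsin gene that hosts Timp3. The region 0.143 kb downstream of the TSS had a peak in every mouse, at percentiles of 61.0 to 73.2, and the called regions lay farther away. Timp3 -96.26 kb had a peak in Young Bleo 2, 3 and 4 alone (14, 20 and 17 fragments at the summit) and in none of the other 15 samples. It thus entered the 47338 regions only through the group in which it was found, and its calls in both comparisons with Young Bleo rest on a percentile of 0 in every other sample. They are given as a description.

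Timp3 +39.55 kb had a peak in all 4 Young Bleo samples, at percentiles of 35.8, 12.5, 27.3 and 18.7, in 1 of 5 Young Sham (7.6), 2 of 4 Aged Sham (18.6 and 11.2) and 1 of 5 Aged Bleo samples (20). Young Bleo against Young Sham and against Aged Bleo each gave an exact p of 0.0476. By limma the difference of Young Bleo from Young Sham was 22.1 (SE 5.30, adjusted p = 0.0331). It was 17.1 with lane as a covariate (limma adjusted p = 0.886) and 0 with lists of equal length. Timp3 -52.19 kb went with age in the sham groups, with a peak in 3 of 4 Aged Sham and no Young Sham samples (exact p = 0.0476), and in 3 of 5 Aged Bleo and 1 of 4 Young Bleo samples. Aged Sham 2 had the strongest of these peaks, at the 54.6th percentile.

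Timp3 -4.084 kb had a peak in 17 of 18 samples, at lower percentiles in Aged Sham than in Young Sham. Its percentiles were 44.3, 42.6, 27.5, 28.5 and 41.4 in Young Sham and 13.7, 5.8, 0 (no peak) and 3.5 in Aged Sham. The groups did not overlap, and the difference was -31.1 (SE 4.88, limma adjusted p = 0.00377); it passed the adjustment with each of the 18 samples left out in turn (largest adjusted p 0.0174), but not with lane as a covariate, where the difference was -39.4 (adjusted p = 0.195), nor with lists of equal length, where it was -5.90 (adjusted p = 0.414). Its fold enrichment was 6.16 to 8.46 in Young Sham and 4.29 to 5.89 in the 3 Aged Sham samples with a peak. Young Bleo had percentiles of 23.6, 24.8, 34.1 and 18.5, which overlapped Young Sham but not Aged Sham. Aged Bleo, at percentiles of 6.4 to 28.3, overlapped Young Sham, Aged Sham and Young Bleo. This region was named after its values were seen. Timp3 +68.63 kb and Timp3 +75.79 kb, downstream of the gene, had lower percentiles in Aged Bleo than in Young Sham, by -12.6 (SE 3.38, limma adjusted p = 0.0404) and -39.5 (SE 9.23, adjusted p = 0.0204) percentile points. With lane as a covariate these were -18.1 and -23.0 and did not pass (adjusted p = 0.750 and 0.888). With lists of equal length they were -15.8 (adjusted p = 0.0322) and -20.2 (adjusted p = 0.160).

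**Figure D4:**
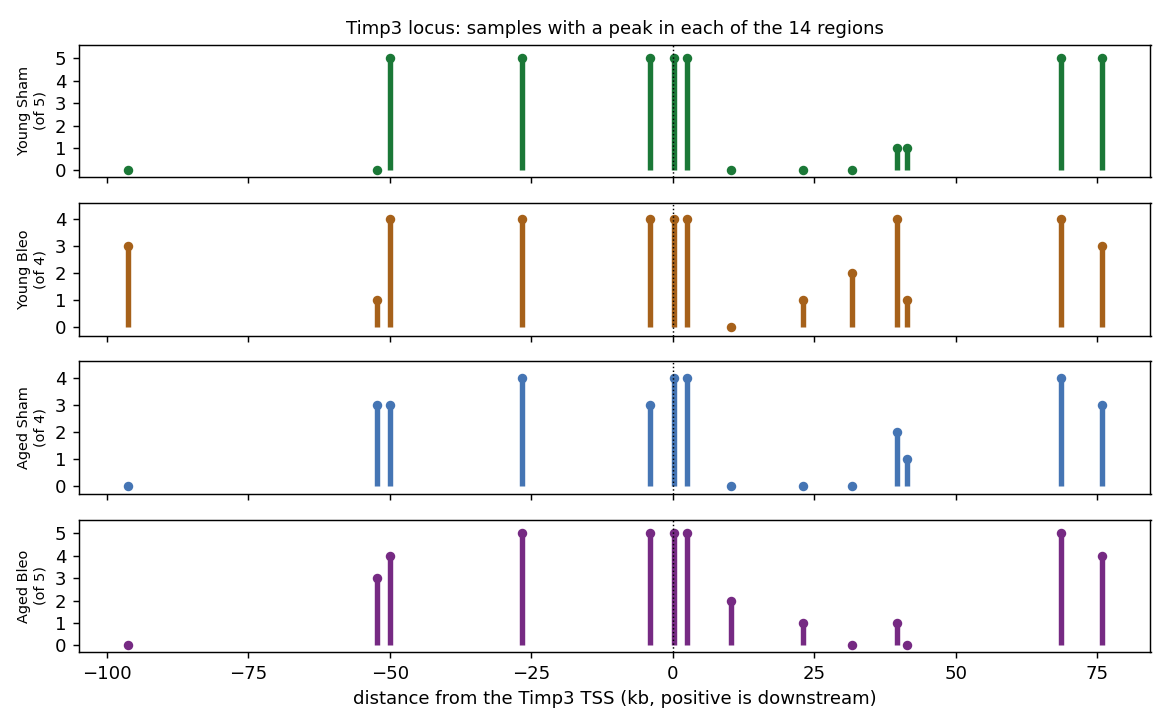
Each bar stands at the distance of 1 of the 14 Timp3 regions from the TSS in kb (horizontal axis, positive is downstream) and its height is the number of samples of the group with a peak there. Of the 14 regions 4, among them those at +0.143 and +68.63 kb, reach the full number in every group, while those at -96.26 and +39.55 kb stand out in Young Bleo.

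Timp1, the inducible TIMP, lies on the X chromosome inside Syn1 and has 1 region, at its promoter. The peak was present in all young samples, in 3 of 4 Aged Sham and in 3 of 5 Aged Bleo samples, which the Fisher test did not call in any comparison. Its percentiles were 48.7, 35.5, 37.2, 43.8 and 50.4 in Young Sham and 70.1, 68.2, 84.0 and 61.8 in Young Bleo, so that these groups did not overlap. They were 26.7, 8.5, 0 and 8.7 in Aged Sham, below every young sample, and 53.3, 63.3, 4.9, 0 and 0 in Aged Bleo. By limma the difference from Young Sham was 27.9 (SE 11.8) in Young Bleo and -32.1 (SE 11.8) in Aged Sham, and neither passed the adjustment (adjusted p = 0.236 and 0.154). Aged Bleo was lower than Young Bleo by -46.7 (SE 11.8), which did not pass either (limma adjusted p = 0.0740). Timp2 had 4 regions, 3 of them in all samples, and Timp4 had 1, 15.9 kb upstream in an intron of Syn2, with a peak in 16 of 18 samples. No region of Timp2 or Timp4 was called.

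Of the membrane-type MMPs, Mmp16, which encodes MT3-MMP, was the only one of the 35 genes with a region that had a peak in every young and in no aged sample. A peak at the Mmp16 promoter (chr4:17853028-17853578, centred 11 bp downstream of the TSS) was found in 5 of 5 Young Sham and 4 of 4 Young Bleo samples and in 0 of 9 aged samples. It rested on 11, 15, 19, 15 and 13 fragments at the summit in Young Sham and on 24, 16, 18 and 11 in Young Bleo. The weakest peaks of any region rested on 7 or 8 fragments in the aged lists and on 7 to 10 in the young lists. The lowest number of fragments expected locally was 1.02 to 1.60 in the aged lists and 1.26 to 1.78 in the young lists. Whether library depth bears on the missing peaks was not tested. The nearest peak lay 86111 to 86244 bp from the TSS in 8 aged lists and 1689011 bp away in Aged Bleo 4.

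Each of the 3 comparisons of an aged with a young group gave an exact p of 0.00794. By limma the percentile was lower by -22.6 (SE 5.75, adjusted p = 0.0307) in Aged Bleo than in Young Sham (with lane as a covariate -53.5, adjusted p = 0.132), by -22.6 (SE 6.10, adjusted p = 0.0602) in Aged Sham than in Young Sham, and by -26.7 (SE 6.10, adjusted p = 0.0524) in Aged Bleo than in Young Bleo. Pooling the treatments, a comparison added after the values were seen, set 0 of 9 aged against 9 of 9 young samples. The region was kept only through the young lists, so this pooled split is a description, and 9 other regions of the 47338 showed the same split. Within lane 7, the 3 Aged Sham samples lacked the peak and the 3 Young Bleo samples had it, a split shared by 6.52% of all regions, where the smallest p that 3 against 3 can give is 0.1. The peaks were weak, at percentiles of 3.5 to 46.0, and among the 21050 strongest peaks of each list the promoter was found in 0 Young Sham samples and the call was lost (Aged Bleo against Young Bleo, exact p = 0.444).

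No region of the other membrane-type genes was called. Mmp14, which encodes the collagenase MT1-MMP, had 1 region, 0.805 kb downstream of the TSS in an intron, with a peak in 4 of 5 Young Sham, 3 of 4 Young Bleo, 2 of 4 Aged Sham and 1 of 5 Aged Bleo samples. The widest gap, Aged Bleo against Young Sham, had an exact p of 0.206. The Mmp15 promoter had a peak in 17 samples and that of Mmp17 in 18, and Mmp15 and Mmp17 had 8 and 3 regions in all. Mmp24 and Mmp25 had 1 region each, with a peak in 7 and 18 samples.

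The gelatinases Mmp2 and Mmp9, which degrade denatured collagen and basement membrane collagen IV, had 3 and 2 regions, and none was called. The Mmp2 promoter had a peak in only 2 samples, Young Bleo 3 and Aged Sham 4, whereas a site 8.97 kb upstream had one in all 18 at a mean percentile of 81.6. For Mmp9, a region in a coding exon 5.19 kb downstream of the TSS had a peak in 5 of 5 Young Sham, 4 of 4 Young Bleo, 2 of 4 Aged Sham and 3 of 5 Aged Bleo samples. Of all 103 distal regions, the one with the highest mean percentile lay in the Mmp cluster on chromosome 9, 23.9 kb downstream of the Mmp27 TSS. Its percentiles were 93.4 to 98.3 in the 18 samples. Mmp13 -2.174 kb and Mmp8 -3.865 kb had peaks in 12 samples each, with the same group counts of 4 of 5, 4 of 4, 2 of 4 and 2 of 5, given as both young and then both aged groups with sham first.

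Of the other MMPs, 4 of 5 genes had a region and none was called. The Mmp11 promoter (stromelysin-3) had percentiles of 58.7 to 83.5 and the region 11.5 kb upstream of Mmp19 had a peak in all samples. The Mmp28 promoter (epilysin) had a peak in 15 samples, at a percentile of at most 16.2, while 3 other Mmp28 regions had one in all 18. The promoter peaks rested on 16 to 46 fragments at the summit.

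Among the ADAMTS enzymes that cleave versican and aggrecan (Adamts1, 4, 5, 8, 9, 15 and 20), which together had 32 regions, Adamts4 +7.21 kb was called most often. This region in an Adamts4 intron had a peak in all 5 Young Sham samples, at percentiles of 36.9, 46.2, 17, 55.2 and 23.3, and otherwise only in Young Bleo 3 (36) and Aged Bleo 1 (28.9). Both peaks outside Young Sham lay within its range, and the other 11 samples had none. The exact p was 0.00794 for Aged Sham and 0.0476 for both bleomycin groups against Young Sham. The limma difference was -35.7 (SE 8.82, adjusted p = 0.0430) in Aged Sham and -29.9 (SE 8.32, adjusted p = 0.0452) in Aged Bleo. In Young Bleo it was -26.7 (SE 8.82) and did not pass (limma adjusted p = 0.121). With lane as a covariate the limma differences of Aged Sham and Aged Bleo were -47.7 and -41.9 and did not pass (adjusted p = 0.474 and 0.765). With lists of equal length both were -4.26 (limma adjusted p = 0.912 and 0.637). Young Sham was sequenced in lane 8 with Young Bleo 4, which lacked the peak.

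Adamts1, a versican-degrading enzyme of the vessel wall, had 12 regions, 5 of them open in all samples, including the promoter, at percentiles of 37.7 to 60.4, and a site at +46.81 kb with a mean percentile of 91.7. Adamts1 +66.36 kb had no peak in Young Sham and had one in Young Bleo 1, 2 and 3 (percentiles 33.5, 65.1 and 39.0), Aged Sham 4 (5.1) and Aged Bleo 1 and 2 (44.1 and 79.1). Adamts1 +53.51 kb had peaks in Young Bleo 1, 2 and 3 and in Aged Bleo 2, all at or below the 3.0th percentile. These peaks rested on 30, 41, 39 and 29 fragments at the summit. Adamts1 +66.36 kb gave an exact p of 0.0476 for Young Bleo against Young Sham. Adamts1 +53.51 kb had the same counts, but with 1 peak outside Young Bleo it was kept only through that group, and its call is a description. The Young Bleo sample without either peak, number 4, was the one sequenced in lane 8 with Young Sham.

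In the opposite direction, Adamts1 +1.991 kb, in an intron, had a peak in every sample, at lower percentiles in Young Bleo than in Young Sham. Its percentiles were 51.5, 45.3, 41.2, 35.3 and 33.6 in Young Sham and 6.1, 5.2, 14.7 and 20 in Young Bleo, with no overlap. The difference was -29.9 (SE 6.71, limma adjusted p = 0.0238) in Young Bleo and -22.6 (SE 6.32, adjusted p = 0.0465) in Aged Bleo against Young Sham; with lane as a covariate the differences were -21.4 and 2.25 (adjusted p = 0.856 and 0.991), and with lists of equal length -6.71 and 2.23 (adjusted p = 1.0 for both). Against Aged Sham, at 21.7 to 41.4, Aged Bleo (2.7, 6.9, 17.8, 41.0 and 25.5) overlapped, and the difference was -13.1 (SE 6.71, limma adjusted p = 0.661). Adamts9 had 10 regions up to 331 kb from the TSS, of which the promoter alone was open in all samples, and none was called. The Adamts5 promoter had a peak in 6 samples, and 2 sites at 352 and 361 kb upstream in all 18. Adamts8 -2.054 kb had a peak in 5 of 5 Young Sham, 4 of 4 Young Bleo, 2 of 4 Aged Sham and 4 of 5 Aged Bleo samples and was not called.

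The procollagen-processing genes gave both calls of Aged Bleo against Aged Sham. The Adamts3 promoter (procollagen N-proteinase of fibrillar collagens and activator of VEGF-C) had a weak peak in 4 of 4 Aged Sham samples, at percentiles of 3.4, 11.0, 13.7 and 15.2, and in 1 of 5 Aged Bleo samples (26.9 in Aged Bleo 2). In the young groups it was in 4 of 5 Young Sham and 1 of 4 Young Bleo samples (exact p = 0.206). Adamts14 -2.538 kb had the reverse, with a peak in 1 of 4 Aged Sham (39.5) and 5 of 5 Aged Bleo samples (32.5, 31.7, 18.8, 8.0 and 11.8), and in 4 of 5 Young Sham and 4 of 4 Young Bleo samples. The exact p was 0.0476 for each, and the limma differences of -5.43 (SE 5.87, adjusted p = 0.860) and 10.7 (SE 10, adjusted p = 0.832) did not pass.

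Among the remaining ADAMTS genes, Adamts18 held the largest of the 17 limma differences that passed the adjustment. Adamts18 -42.71 kb (chr8:113891304-113891801), which was named after its values were seen, is an intergenic site upstream of this gene. Its percentiles were 73.5, 87.7, 85.3 and 80.8 in Young Bleo, with 52, 78, 80 and 55 fragments at the summit, and 8.5, 24.7 and, in the other 3 samples, 0 in Young Sham, where the 2 peaks rested on 10 and 16 fragments. Every Young Bleo sample was above every Young Sham sample, and Young Bleo 4, sequenced in lane 8 with Young Sham, was among the high ones. The difference was 75.2 (SE 13.8, limma adjusted p = 0.00766), passed the adjustment with each of the 18 samples left out in turn (largest adjusted p 0.0265), and had the value 74.2 with lane as a covariate, where it did not pass (adjusted p = 0.331). With lists of equal length it was 68.9 (adjusted p = 0.0165).

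In aged mice Adamts18 -42.71 kb had no peak in Aged Sham 1 to 3 and a percentile of 18.9 in Aged Sham 4, while Aged Bleo gave 82.2, 79.0, 14.9, 0 and 27.2. Aged Bleo thus held 2 samples at the Young Bleo level and 3 near the sham level. The 2 high samples, Aged Bleo 1 and 2, had the longest lists of the group (37595 and 40883 peaks). The other 3 lists held 21050 to 29049 peaks. Aged Bleo 1 and 2 also had the highest Aged Bleo percentiles at the Timp1 promoter and the only Aged Bleo peaks at Adamts1 +66.36 kb. This was not particular to these regions. They were also highest in the group at uncalled regions such as Adamts9 -44.97 kb (84.3 and 80.1) and Mmp15 +40.54 kb (70.2 and 70.9). At Adamts1 +1.991 kb they were lowest (2.7 and 6.9). At Adamts18 -42.71 kb the difference of Aged Bleo from Aged Sham, 36 (SE 13.8, limma adjusted p = 0.472), and from Young Bleo, -41.2 (SE 13.8, adjusted p = 0.173), did not pass. By presence alone, 4 of 4 Young Bleo against 2 of 5 Young Sham samples, the region was not called (exact p = 0.167). Adamts18 +11.51 kb, in an intron, had a peak in 4 of 5 Young Sham, 4 of 4 Young Bleo, 2 of 4 Aged Sham and 1 of 5 Aged Bleo samples (exact p = 0.0476 for Aged Bleo against Young Bleo).

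Adamts7 +21.37 kb, in an intron of Adamts7, a protease of cartilage and vascular smooth muscle matrix, had a peak in 3 of 5 Young Sham (20.5, 18.7 and 18.2), all 4 Young Bleo (21.1, 41.9, 39.0 and 47.4), 1 of 4 Aged Sham (30.4) and 0 of 5 Aged Bleo samples. Every Young Bleo sample was above every Young Sham and Aged Bleo sample. Aged Bleo against Young Bleo gave an exact p of 0.00794 and a limma difference of -37.4 (SE 6.75, adjusted p = 0.0170), which also passed with lane as a covariate (-64.5, adjusted p = 0.0185), the only limma call of the 17 to do so, although no Aged Bleo sample shared a lane with Young Bleo. With lists of equal length the difference was -3.76 (adjusted p = 0.725). Young Bleo against Young Sham gave 25.9 (SE 6.75, limma adjusted p = 0.0475), and 35.9 with lane as a covariate (adjusted p = 0.0750). With lists of equal length this difference was 3.76 (limma adjusted p = 0.652).

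Adamts6 +212 kb, an intergenic site beyond the gene, had a peak in 1 of 5 Young Sham (33.3), all 4 Young Bleo (56.3, 52.3, 59.8 and 30.2), 3 of 4 Aged Sham (5.4, 24.3 and 42.1) and all 5 Aged Bleo samples (51.7, 55.4, 26.5, 10.2 and 15.1). Both bleomycin groups against Young Sham gave an exact p of 0.0476, with a limma difference of 43.0 (SE 11.2, adjusted p = 0.0469) in Young Bleo and 25.1 (SE 10.5, adjusted p = 0.179) in Aged Bleo. With lane as a covariate these were 23.5 (adjusted p = 1.0) and -33.0, and with lists of equal length the called difference was 13.5 (adjusted p = 0.371). The Adamts6 and Adamts17 promoters had peaks in every sample, at percentiles of 73.5 to 88.5 and 77.7 to 97.6. Adamts17 +129.1 kb, in a coding exon, had a peak in 5 of 5 Young Sham, 3 of 4 Young Bleo, 1 of 4 Aged Sham and 2 of 5 Aged Bleo samples, and the exact p for Aged Sham was 0.0476.

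**Figure D5:**
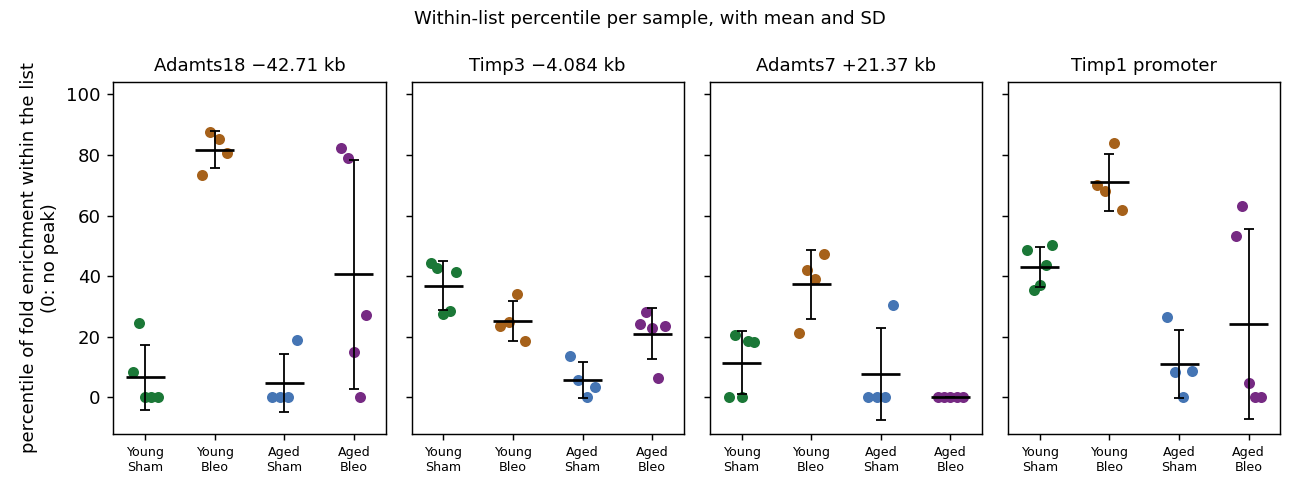
Each point is the percentile of fold enrichment of the region within the list of 1 sample (vertical axis, 0 for no peak), by group, with a line for the mean and bars for the SD. At Adamts18 -42.71 kb the 4 Young Bleo samples lie between 73.5 and 87.7, above all Young Sham samples, and the Aged Bleo samples are split between high and low values.

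Whether bleomycin had another effect in aged than in young mice was asked with the interaction of age and treatment in limma. Of the 120 regions 9 (7.50%) had an unadjusted p of at most 0.05, beside 6.99% of all regions, and no member passed the adjustment (smallest adjusted p 0.249, Timp3 -4.084 kb), while 67 of all regions did. In 7 of the 9 the mean percentile was highest in Young Bleo, beside 34.1% of the 3311 regions of all with such a p: Timp3 -96.26 kb, Timp3 +39.55 kb, Adamts7 +21.37 kb, Adamts7 +35.7 kb, Mmp20 -24.74 kb, Adamts20 +61.82 kb and the Mmp17 promoter. The exceptions, Adamts4 +7.21 kb and Timp3 -4.084 kb, were highest in Young Sham. Timp3 -96.26 kb and Adamts20 +61.82 kb had at most 1 peak outside Young Bleo and were kept only through it, so that their place among the 7 was fixed by the filter.

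The genes around this system, plasminogen activators, furin-type convertases, ADAMs, ADAMTS-like proteins, cathepsins and others, were taken as a list of 35 genes, of which 31 had 113 regions. In Aged Sham against Young Sham 3 were lower and 1 higher (3.54%, beside 3.33% of the Mmp, Adamts and Timp regions and 5.17% of all regions), and in Young Bleo against Young Sham 1 was lower and 3 higher (3.54%, beside 5.00% and 5.94%). In Aged Bleo, 1 was lower and 0 higher than in Young Sham (0.885%, beside 2.50% and 3.21%), 0 of either kind were called against Aged Sham (beside 2 of the 120 regions and 0.885% of all), and 4 were lower and 1 higher than in Young Bleo (4.43%, beside 4.17% and 2.57%). Tfpi2 +56.9 kb, near the gene of a secreted serine protease inhibitor, had a peak in 5 of 5 Young Sham, 3 of 4 Young Bleo and 0 of 9 aged samples (exact p = 0.00794 for each aged group against Young Sham). Adamtsl3 -72.36 kb had a peak in all 4 Young Bleo samples and in 1 of the other 14 (Aged Bleo). It was kept only through Young Bleo, and its calls in both comparisons with that group, counted above, are a description.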

How the data were processed

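ATAC-seq was measured in sorted lung ECs of 18 mice, 1 peak list each, and the labels gave each sample's group and number. Per the study's methods and the submitters' processing notes, the authors aligned read pairs to mm10 with BWA, kept unduplicated pairs of which at least 1 end mapped uniquely, and used MACS2 (FDR 1%) on every library by itself. A control library or a shift of cut sites was not given in the sources used here. As deposited, fold enrichment is a ratio, the summit's fragments over those expected locally. The -log10 of p and of q, and a score that was not used, are also the authors' MACS2 output. None of these is scaled between libraries, so fold enrichment was ranked within each list (percentile, 0 for no peak). The lists hold no read counts or read totals. Fragments at a summit were solved from the fold enrichment and -log10 p of MACS2's Poisson test and came out whole, within 0.05, for at least 99.989% of the peaks solved in each list, and the lowest expected number was 1.02 to 1.78 fragments.

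Peaks were merged (at least 1 bp, 2 or more samples; 19 mitochondrial peaks in 5 lists were left out) and annotated with 45756 RefSeq NM and NR transcripts of GRCm38.p6, and each region was assigned to the nearest TSS by its midpoint. All 47338 regions entered each fit, and p-values were adjusted over all of them (Benjamini-Hochberg). Two-sided Fisher's exact tests compared the samples with and without a peak (Python 3.11.15, scipy 1.17.1), and limma 3.58.1 (R 4.3.3) compared percentiles in 1 fit over the 4 groups. Both were tested on simulated data. Named were all promoters and up to 3 regions per comparison and direction by the smallest Fisher p. The 3 distal regions with the highest mean percentile and the gene with the most regions were also named. Regions passing adjustment in limma were added after their values were seen. Alternatives were a -log10 q of at least 5, the 21050 strongest peaks of each list, peaks covering 50% of a region, limma with and without a replicate block or a lane term, limma on percentiles from lists of equal length, a promoter of 2000 bp on either side, and each sample left out in turn. The genes, lists and tests were chosen with earlier results of these data known. Marker and related genes were scored by regions at the TSS or nearest to it. The values of 1 related gene are not reported here. Each list is from 1 mouse, so the spread behind the limma p-values joins differences between mice with those between libraries and list lengths. The Fisher p-values rest on counts of mice with a peak and measure no spread.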

Additional observations from a re-analysis of the deposited data

Results flagged for a closer look

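Among 63 sets of values, each 1 region or share in 1 group, 2 held a sample that stood apart by Dixon's test, which chance alone gives in about 1 in 20 groups. At the Adamts9 promoter in Aged Bleo, Aged Bleo 4 had a percentile of 24.6 against 53.5 to 59.3 in the other 4 samples, a gap of 0.831 of the range, and this was also the list with the fewest peaks (21050). At the Adamts1 promoter in Young Sham, Young Sham 5 had 48.5 against 39.5 to 42.0 in the other 4, a gap of 0.729 of the range.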

How the results depend on the processing

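The comparisons are given in the order Aged Sham, Young Bleo and Aged Bleo against Young Sham, then Aged Bleo against Aged Sham and against Young Bleo, where presence called 4, 6, 3, 2 and 5 regions. With all lists reduced to equal length, 66 member regions were left and 2, 6, 2, 1 and 1 were called (2.92, 6.84, 3.06, 1.48 and 1.74% of all regions), but none of the 20 calls given in the report was among them. A -log10 q of at least 5 left 108 member regions, of which 5, 7, 4, 1 and 6 were called (5.42, 6.28, 3.24, 0.896 and 2.90% of all regions). It kept 18 of the 20 calls. With peaks required to cover 50% of a region, Aged Bleo had 7 calls against Young Sham in place of 3 and 10 against Young Bleo in place of 5 (5.94 and 5.69% of all regions, from 3.21 and 2.57%), and 13 of the 20 were kept. The use of limma at an unadjusted p of at most 0.05 called 19, 25, 27, 6 and 21 regions (18.6, 16.8, 21.9, 7.95 and 15.8% of all regions). With a replicate block these were 21, 25, 25, 10 and 18 (21.3, 16.6, 21.96, 8.99 and 12.6%), and with a lane term 9, 9, 12, 7 and 18 (8.99, 6.45, 7.14, 4.00 and 10.7%). Same-numbered samples did not deviate together (25 pairs, correlations from -0.302 to 0.280, and 6 of 18 samples correlated best with their own number), so the block is no pairing of the mice. With the lane term 3 differences of Aged Bleo from Young Sham changed sign, to -33.0 at Adamts6 +212 kb, 5.19 at Adamts17 +116.2 kb and 2.25 at Adamts1 +1.991 kb. Of the 17 limma calls after adjustment, whose alternatives were added after the values were seen, 8 passed with the block, 1 with the lane term, 2 with percentiles from lists of equal length (where Adamts1 +1.991 kb in Aged Bleo against Young Sham changed sign, to 2.23) and 2 with each sample left out in turn, the latter at Timp3 -4.084 kb and Adamts18 -42.71 kb. With 1 sample left out, the numbers called were 2 to 3, 0 to 2, 3 to 6, 0 to 1 and 2 to 4 (1.15 to 2.15, 1.69 to 3.08, 3.73 to 5.86, 0.104 to 0.270 and 0.414 to 0.858% of all regions). For the interaction 9 were called with all samples (7.50%, beside 6.99% of all regions). This number was 8 to 13 with 1 sample left out, 7 with the block and 6 with the lane term. The share of all regions under these 3 settings is not given here, so these moves say nothing about the members in particular. A promoter of 2000 bp on either side held 30 regions in place of 17. Read totals were not in the lists, so a site without a peak may be open below the depth of its library.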
